A study of Mus musculus with 9 samples.

Results

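Stromal cells of mouse bone marrow that carried an Il7 reporter were set against unfractionated marrow, over every programme the arrays could read. The comparison used 5 of the 9 arrays of the series, 3 of reporter-positive stroma and 2 of total marrow, chosen by their labels alone. Il7 is the growth factor of early B cell precursors, and in the IL7-Cre Transgenic/Rosa-eYFP hetero strain YFP marks any cell in which an Il7-driven Cre is active or was active earlier. YFP is therefore a record of Il7 transcription in the cell or its ancestors and not a measure of it. The reporter-positive cells came from mice aged 6 to 12 weeks and were sorted as CD45-Lin-CD54+BP1+ and YFP+, with 1800 to 10000 cells in a sample. CD45 is the leucocyte antigen encoded by Ptprc, CD54 is the adhesion molecule encoded by Icam1 and BP1 is the aminopeptidase encoded by Enpep. Total marrow came from wild type C57Bl/6J mice with no transgene and entered as 10 ng of RNA. All groups were of the C57Bl/6J strain and were labelled young adults. Genotype, sorting and RNA input thus differed together between the groups, and their parts cannot be told apart. 3 arrays of the same gate without the reporter, from wild type mice, entered the fit to estimate the spread. The labels do not say whether replicates were separate mice, so the p-values measure the spread between these samples, which may be technical.

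Marrow reticular stroma forms the niche of blood formation. Its cells supply stem cell factor (Kitl), the chemokine Cxcl12 and Il7 to blood progenitors, carry the leptin receptor (Lepr), lay down matrix, and include the precursors of bone and marrow fat. Total marrow is made up almost wholly of blood cells, with granulocytes, red cell precursors and B lineage cells in the majority. A transcript lower in the sorted cells may come from fewer cells that hold it or from less of it per cell, and a bulk array cannot tell these apart.

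Rows with exactly 1 gene symbol numbered 21789 and stood for 19938 genes, each with a log2 signal on every array. The median signal was 4.55 to 4.60 on the 5 arrays. Across rows, the reporter-positive arrays correlated with each other at 0.95 to 0.966 and with total marrow at 0.780 to 0.804, while the pair of total marrow arrays correlated at 0.993. Calls were made at limma's p below 0.05 after Benjamini-Hochberg adjustment over the 21789 rows. A detection cut of 3.94 was taken as the 95th percentile of 1193 rows for olfactory and vomeronasal receptors, genes of sensory neurons, and a difference against a group below this cut is a lower bound on the log2 scale.

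The marker genes followed the labels. Il7 stood at 7.34, 7.87 and 6.41 in the reporter-positive arrays and at 3.40 and 3.19 in total marrow, a log2 difference of 3.91 ± 0.38 (SE, n = 3 and 2; limma adjusted p = 0.00018). Lepr stood at 11.36, 11.47 and 11.32 against 3.57 and 3.51, and Kitl at 10.84, 10.71 and 10.38 against 3.32 and 3.26. Cxcl12 stood at 12.35, 12.37 and 12.28 against 5.51 and 5.35. Ptprc ran the other way, at 3.80, 3.78 and 3.66 in the sorted cells, below the detection cut, against 9.69 and 9.75. In none of these genes did the groups overlap, as was so for 59.8% of all rows in either direction. Il7 varied more among the sorted arrays (SD 0.74) than Lepr (SD 0.081) or Cxcl12 (SD 0.044), with the third array the lowest. That array was low in many other rows as well. It lay more than 1 log2 unit below both other sorted arrays in 641 rows, against 123 for the first and 169 for the second. Its array weight from limma was the lowest of those fitted (0.315). The gate antigens were higher by 1.16 for Icam1 (adjusted p = 0.0033) and 2.71 for Enpep (adjusted p = 0.0030), both of which the sort selected. In the wild type gate, whose comparison shares the total marrow arrays, the means were 7.82 for Il7, 11.17 for Lepr, 12.39 for Cxcl12, 10.58 for Kitl and 3.65 for Ptprc. None of the 21789 rows was called between reporter-positive and wild type cells by limma, against 3250 at an unadjusted p under 0.05.

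Some rows varied strongly among the reporter-positive arrays, neutrophil transcripts among them. S100a8, a calcium-binding protein of neutrophil cytosol, stood at 11.01, 9.21 and 4.36 in the sorted arrays against 12.56 and 12.61 in total marrow. Its partner S100a9 stood at 10.60, 8.49 and 4.39 against 13.14 and 13.09, and neither passed the test (limma adjusted p = 0.152 and 0.0641). S100a9 passed without the first sorted array (limma adjusted p = 0.0230). With no array left out it passed under a filter on dim rows, array weights, trended robust variances or a replicate block (limma adjusted p = 0.0314 to 0.0384). It did not after quantile or cyclic loess rescaling (limma adjusted p = 0.0874 and 0.0941). The macrophage and neutrophil lysozyme Lyz2 stood at 8.34, 3.67 and 4.55 against 12.16 and 11.86. Every sorted array lay below total marrow in these genes, and the first was the highest. Summed over the 12 listed neutrophil markers, the log2 signal was 12.07, 10.62 and 7.96 in the sorted arrays and 15.39 and 15.35 in total marrow. On the sorted arrays 8, 8 and 6 of the 12 exceeded the detection cut, and on both marrow arrays all 12 did. Ly6g, Cxcr2 and Mmp8 were below the cut on all 3 sorted arrays (Ly6g 2.95, 2.92 and 3.10). The part of this signal in the results on granule and phagocyte genes was not tested beyond leaving out each array.

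**Figure D1:**
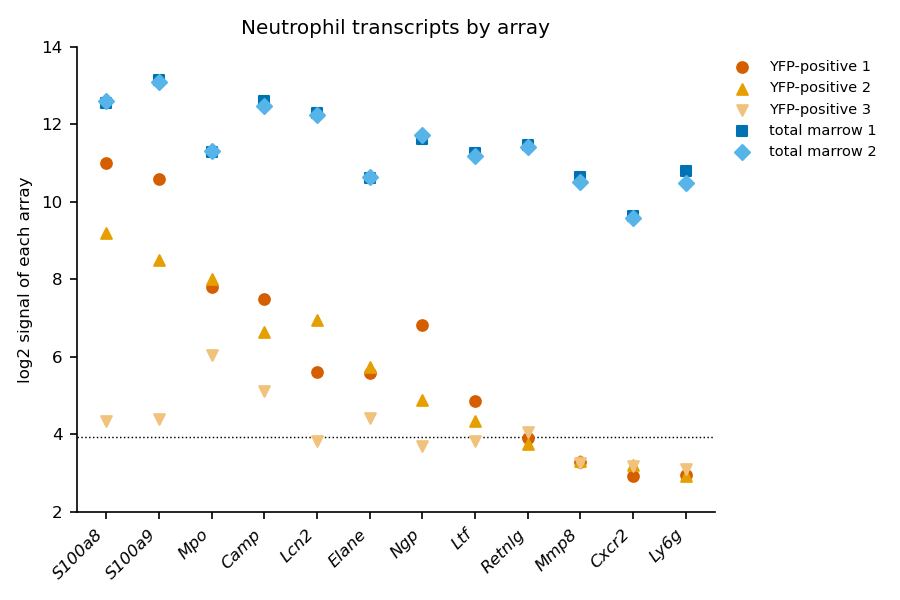
Log2 signal of 12 neutrophil transcripts (horizontal axis) on each of the 5 arrays, with the detection cut of 3.94 as a dotted line. S100a8 and S100a9 spread from 4.36 to 11.01 and from 4.39 to 10.60 over the reporter-positive arrays, while Ly6g, Cxcr2 and Mmp8 lie below the cut in all of them.

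Markers of other non-blood cells differed by list in the sorted cells. Endothelial genes were mostly below the detection cut. Most bone and fat cell genes were above it, the fat cell genes in total marrow as well. Of 12 endothelial markers 3 or 4 exceeded the cut on each sorted array, and the summed log2 signal was 8.31 to 8.78 against 8.35 to 8.44 in total marrow. Pecam1 (3.63, 3.65 and 3.76), Cdh5 (3.46, 3.65 and 3.77), Kdr and Tek were below the cut, while endoglin (Eng), which stroma also carries, was higher by 1.05. Of 10 Schwann cell markers, Pmp22 and S100b were higher by 5.63 and 5.60, whereas the defining factor Sox10 was at 4.21, 4.33 and 4.60 against 3.88 and 4.31, and Cdh19 was below the cut; 6 of the 10 exceeded the cut on each sorted array and 4 or 5 on the marrow arrays. The summed Schwann marker signal was 10.36 to 11.49 in the sorted cells and 7.42 to 7.44 in total marrow. Of 12 smooth muscle and pericyte markers, Notch3 (2.78), Abcc9 (2.68) and Des (1.18, a call lost in 11 alternatives) were higher and Acta2, smooth muscle actin, was lower (−1.91). From 8 to 10 of the 12 exceeded the cut on the sorted arrays, and their summed signal was 8.69 to 9.18 against 8.07 to 8.16. Of 8 osteoblast and osteocyte markers 6 were higher and exceeded the cut on each sorted array, and 4 exceeded it on each marrow array. The summed signal of the list was 12.01 to 12.36 against 7.71 to 7.87. Ibsp, bone sialoprotein, stood at 12.07, 11.55 and 11.58 against 4.16 and 4.64, while the osteocyte genes Dmp1 and Mepe were below the cut. Of 11 adipocyte markers 4 were higher and 1 lower, 9 exceeded the cut on each sorted array, and the summed signal was 12.84 to 13.08 against 9.20 to 9.44. Adipoq, adiponectin, stood at 11.78, 11.98 and 11.91 against 4.76 and 4.86, while Lep and the lipid droplet gene Cidec were below the cut. Of 12 chondrocyte markers 3 were higher and 7 or 8 exceeded the cut on the sorted arrays, with a summed signal of 8.31 to 8.71 against 7.84 to 7.94 and Acan, aggrecan, below the cut. The part of these cells in the results was not tested.

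Over all rows, 2396 were higher (11.0%) and 4026 lower (18.5%) in the reporter-positive cells. Counted once per gene, 2278 genes were higher (11.4% of 19938) and 3556 were lower (17.8%), and these shares are the background for the counts of gene groups that follow. Higher rows were fewer but made up more of the largest differences. At a difference of at least 2-fold the counts were 1435 higher and 2948 lower, at least 16-fold they were 245 and 257, and at least 64-fold they were 60 and 38. At least 128-fold separated 22 higher and 8 lower rows. 389 genes (1.95%) were called higher, above the detection cut on every sorted array and at or below it on both marrow arrays. 553 genes (2.77%) had the reverse pattern. Another 1516 genes were called higher and 2599 lower while above the cut on all 5 arrays. The counts rested on having both total marrow arrays: without the first, 1256 rows were higher and 2380 lower, and without the second 1338 and 2841.

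**Figure D2:**
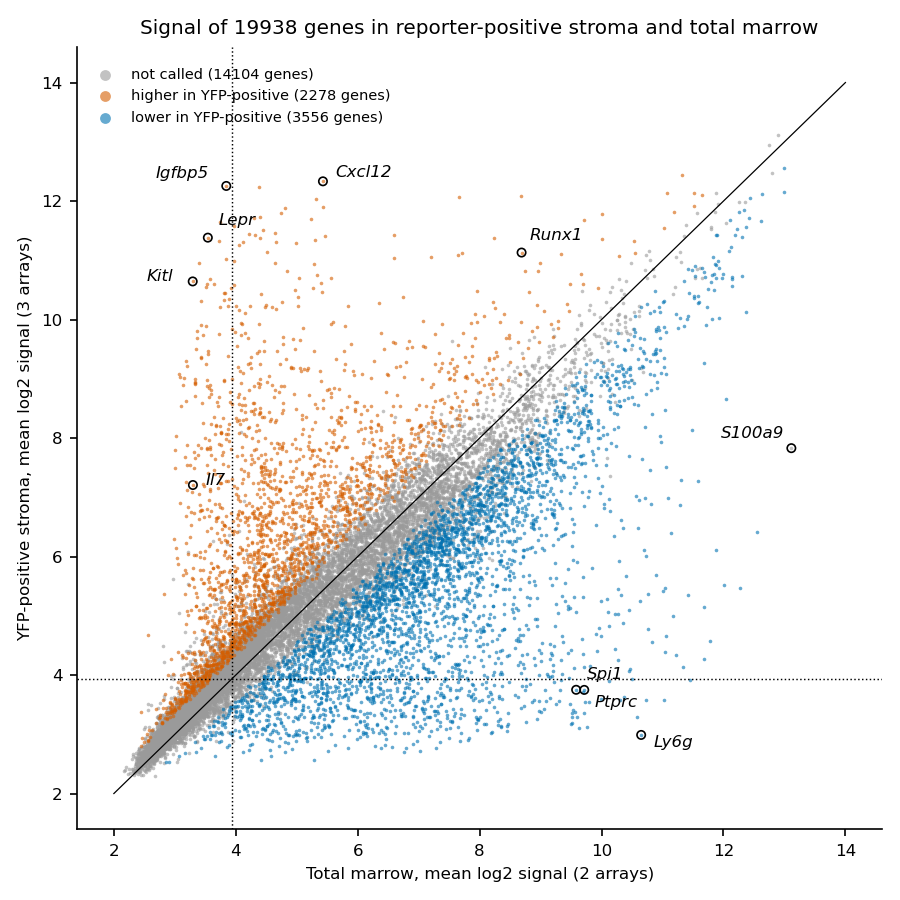
Mean log2 signal of 19938 genes, 1 row each, in total marrow (horizontal, 2 arrays) and reporter-positive stroma (vertical, 3 arrays), with the detection cut dotted and the line of equal signal solid. Genes called higher (2278) and lower (3556) fan out to both sides, with Lepr, Kitl and Il7 left of the cut in marrow and Ptprc, Spi1 and Ly6g under it in stroma.

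Transcription factors separated into a mesenchymal set that was high and a blood set that was low. Of 68 mesenchymal factors measured, 41 were higher and 2 lower, with a median log2 difference of 1.03 against 0.09 over all genes. Snai2, a zinc finger repressor of mesenchymal cells, stood at 11.29, 11.10 and 11.04 against 4.41 and 4.62 (6.63 ± 0.13, SE; adjusted p = 8.39e-08). Ebf3 stood at 10.70, 10.10 and 10.25 against 3.77 and 4.03, and Foxc1 at 9.72, 9.88 and 9.47 against 3.10 and 3.64; both are known to maintain the reticular niche. Prrx1, a homeobox factor of limb mesenchyme, stood at 9.25, 9.09 and 8.67 against 3.41 and 3.26. These 4 genes were named as the largest non-overlapping differences of the list, so their separation is no result. In each the groups lay more than 5 log2 units apart. Among the others, Dlx5 (5.06), Nfib (4.97), Irx3 (4.40), Zfhx4 (4.13), Tbx15 (3.81) and the osteoblast factor Sp7 (3.41) were higher. The exceptions were Zeb1 (−1.10) and Sox6 (−0.39), whose calls were both lost without either total marrow array.

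Hox genes, which record position along the body axis, were among the higher factors. Of 37 Hox genes measured, 16 were higher and 0 lower, and 7 of them passed the cut on every sorted array and on no marrow array. Hoxc6 stood at 7.63, 7.61 and 7.70 against 3.68 and 3.64, and Hoxa10 at 7.33, 7.25 and 7.24 against 4.49 and 4.64. The called genes came from the Hoxa, Hoxc and Hoxd clusters, among them Hoxa6 (2.50), Hoxc9 (2.05), Hoxa3 (2.04), Hoxa9 (1.96), Hoxc10 (1.82) and Hoxd8 (1.32). Without 1 of the arrays the count fell to 7 (either marrow array) or 10 (the third sorted array).

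Of 51 factors known for blood lineages, 35 were lower and 5 higher, with a median of −1.34. Spi1, which encodes PU.1, the master factor of myeloid and B cells, stood at 3.70, 3.78 and 3.78 against 9.67 and 9.50 (−5.83 ± 0.12, SE; adjusted p = 1.02e-07). Its relative Spib stood at 3.98, 4.03 and 3.86 against 9.40 and 9.52. Myb, a factor of progenitor growth, stood at 4.39, 4.57 and 4.16 against 9.50 and 9.41, and Hhex at 3.14, 3.20 and 3.37 against 8.12 and 7.83. Spi1 and Hhex were thus below the detection cut on every sorted array. Ikzf1 (−4.60), Nfe2 (−4.65), Irf4 (−4.41), Pou2af1 (−4.23) and Cebpe (−4.0) were also lower. 5 members of the list ran against it. Runx1, required for the first blood stem cells, stood at 11.29, 10.97 and 11.13 against 8.62 and 8.75 (2.44 ± 0.14, SE; adjusted p = 9.46e-06). Cebpa stood at 8.78, 9.92 and 9.10 against 7.63 and 7.39, and Ebf1, the early B cell factor, at 9.90, 9.33 and 9.81 against 8.44 and 8.51. Hoxa9 (1.96) and Stat5b (0.65) were the other members that rose. None of these groups overlapped, as was so for 59.8% of all rows in either direction, and Cebpa and Ebf1 stand on the mesenchymal list as well.

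**Figure D3:**
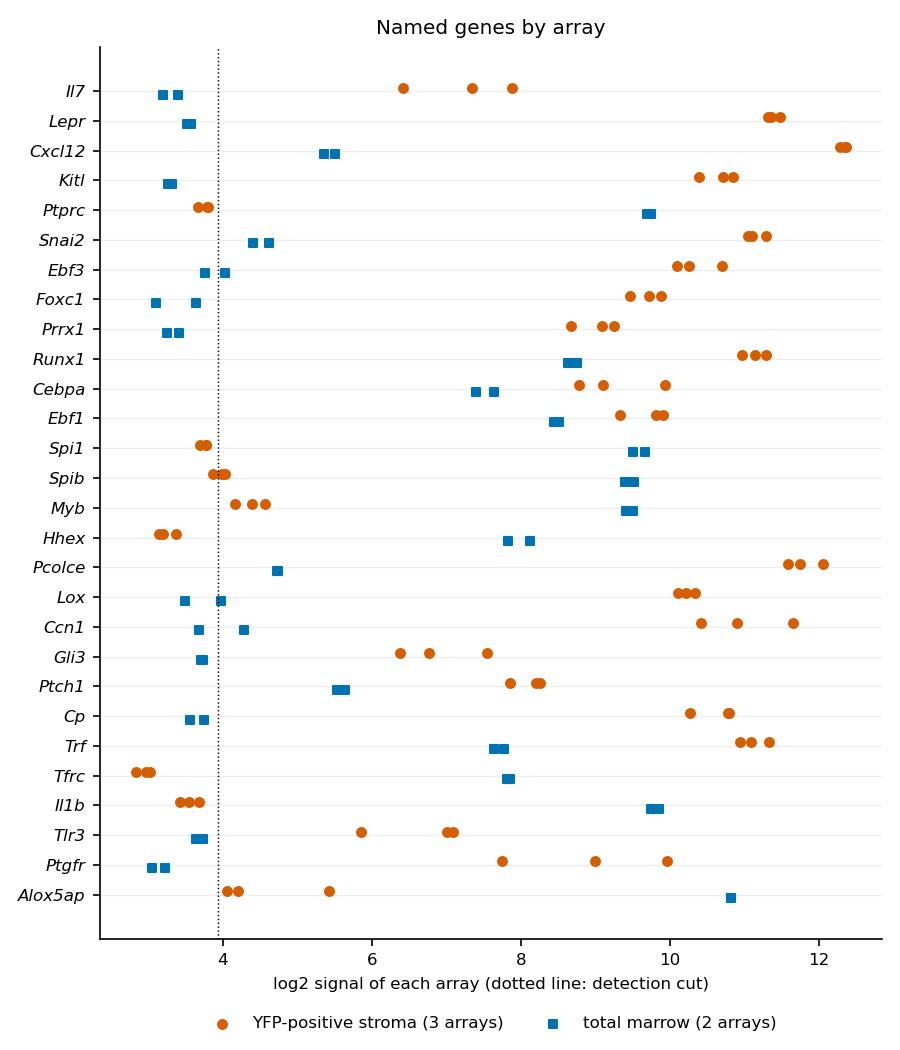
Log2 signal of 28 named genes (rows) on each of the 3 reporter-positive (circles) and 2 total marrow (squares) arrays, with the detection cut of 3.94 as a dotted line. The genes range from Lepr and Kitl high in stroma to Spi1, Hhex and Il1b high in marrow, and Runx1, Cebpa and Ebf1 are high in both and higher in stroma. Most were named from called genes whose groups did not overlap, so their separation is no result. Over all rows 59.8% did not overlap, in either direction.

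Promoter sequences were available for enough of the strongly lower genes to describe them. RefSeq promoters of build GRCm38.p6, each 250 bases before to 50 after the start, were matched for 206 of the 254 genes lower by at least 4 log2 units (81.1%). Only 160 of the 234 genes higher by at least 4 log2 units were matched (68.4%), so the same check is void for them and is not reported. The letters GAGGAAGT, a form of the site that PU.1 is known to bind, occurred on either strand in 28 of the 206 promoters (13.6%). Over all 27018 promoters of the table the share was 3.28%, and over the 5229 genes above the cut on all 5 arrays and not called it was 2.73%. This string was 1 of 17 searched, and it was not the only one to differ. Against those 5229, several other strings were also more frequent in the 206. Among them were TTTGAA (22.8% against 10.9%), TATAAA (14.1% against 6.46%), AGATAA (10.2% against 5.79%), TGANTCA (8.25% against 4.7%) and TGTGGTT (8.25% against 3.25%). CCGGAAG (6.8% against 19.6%) and GGGCGG (33% against 64.7%) were among the less frequent ones. The strongly lower promoters were also poorer in CpG: 27.2% had an observed over expected CpG ratio of at least 0.6, against 72.9% of those 5229. The gaps depend on the genes compared. Of 4202 genes at or below the cut on all 5 arrays, 18.7% reached that ratio. These held TTTGAA in 23.3%, TATAAA in 22.6%, TGTGGTT in 6.19% and GAGGAAGT in 2.07%. Shown are the 200 bases before the start of the 4 strongly lower genes with the largest differences whose match lay wholly in that window, with the match in capitals (ACTTCCTC is its reverse complement), and those of Cxcl12 and Kitl for comparison.
Ly6g chr15:75155061-75155260 (+ strand): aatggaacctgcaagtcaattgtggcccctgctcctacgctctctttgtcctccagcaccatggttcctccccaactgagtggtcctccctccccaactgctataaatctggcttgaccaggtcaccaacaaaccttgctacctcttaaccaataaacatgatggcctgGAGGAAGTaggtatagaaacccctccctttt
Elane chr10:79886112-79886311 (+ strand): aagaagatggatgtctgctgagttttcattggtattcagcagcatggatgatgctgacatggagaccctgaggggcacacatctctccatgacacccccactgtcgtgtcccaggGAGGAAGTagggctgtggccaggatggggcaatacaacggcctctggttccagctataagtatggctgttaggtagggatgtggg
Cd37 chr7:45238840-45239039 (- strand): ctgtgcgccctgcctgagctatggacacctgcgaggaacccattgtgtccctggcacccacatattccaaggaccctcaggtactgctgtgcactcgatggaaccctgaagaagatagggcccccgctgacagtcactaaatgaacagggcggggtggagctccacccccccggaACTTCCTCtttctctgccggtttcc
Pf4 chr5:90772235-90772434 (+ strand): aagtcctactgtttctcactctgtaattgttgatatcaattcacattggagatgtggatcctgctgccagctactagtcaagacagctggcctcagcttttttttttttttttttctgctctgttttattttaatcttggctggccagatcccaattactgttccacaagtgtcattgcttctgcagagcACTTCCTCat
Cxcl12 chr6:117168335-117168534 (+ strand): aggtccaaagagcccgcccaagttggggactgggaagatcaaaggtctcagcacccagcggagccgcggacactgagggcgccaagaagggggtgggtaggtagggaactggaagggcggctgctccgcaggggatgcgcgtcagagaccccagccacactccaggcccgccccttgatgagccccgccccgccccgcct
Kitl chr10:100015621-100015820 (+ strand): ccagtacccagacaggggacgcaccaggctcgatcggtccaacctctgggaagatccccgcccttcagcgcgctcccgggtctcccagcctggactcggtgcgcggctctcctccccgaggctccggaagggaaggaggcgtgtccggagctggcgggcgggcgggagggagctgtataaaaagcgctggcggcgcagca

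In Ly6g, a neutrophil surface antigen (−7.66), the match began at base −31 counted from the start, and in Elane, neutrophil elastase (−5.39), it began at base −85. In Cd37, a leucocyte tetraspanin (−5.34), and Pf4, a platelet chemokine (−4.77), it lay on the opposite strand, with its first base at −25 and −10. No match lay in the windows of Cxcl12 or Kitl, which tells nothing, as only 3.28% of all promoters held a match. The lower genes shown were chosen for holding one, so the contrast is built in. A match is a string of letters and not a measured binding site.

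Nearly all genes of leucocyte receptor signalling were lower. Of 52 signalling genes downstream of leucocyte receptors, 48 were lower and 0 higher, with a median of −3.07. Tyrobp, the adaptor of activating myeloid receptors, stood at 6.38, 5.85 and 6.12 against 11.90 and 11.85, and Sla, a Src-like adaptor, at 3.29, 3.52 and 3.47 against 8.95 and 9.15. Hcst stood at 4.22, 4.47 and 4.55 against 10.00 and 9.86. The kinases Syk (−3.68) and Btk (−4.05), the exchange factor Vav1 (−3.86) and the phosphatase Ptpn6 (−3.86) were all lower. Of 44 Fc receptors and C-type lectins, 34 were lower and 4 higher (median −2.75), led by Clec12a at 3.03, 3.65 and 3.42 against 9.54 and 9.48. The higher ones were Clec11a, a secreted bone growth factor, at 7.40, 7.62 and 7.69 against 4.04 and 4.45 (3.33), the collagen receptor Mrc2 (2.33), Clec2d (1.62) and Clec14a (1.48). Of 30 genes of the phagocyte oxidase and granules, 27 were lower and 0 higher (median −4.21), among them Mmp8 at 3.29, 3.31 and 3.27 against 10.64 and 10.51. The granule gene Lcn2 stood at 5.62, 6.95 and 3.84 against 12.29 and 12.24. The list's median difference was −3.83, −3.77 and −4.92 on the 3 sorted arrays in turn. This list shares genes such as Mmp8 and Ltf with the neutrophil markers above. The part of neutrophil signal in it was not tested beyond leaving out each array.

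Innate sensing was lower but not uniformly. Of 41 pattern recognition and inflammasome genes, 18 were lower and 4 higher (median −0.41). Il1b, the cytokine released by inflammasomes, stood at 3.69, 3.42 and 3.54 against 9.85 and 9.74. Tlr13 (−4.80), Nlrp3 (−3.45) and Aim2 (−3.26) were below the detection cut on every sorted array. Tlr3, the sensor of double-stranded RNA, stood at 7.09, 7.0 and 5.85 against 3.73 and 3.64 (2.96 ± 0.34, SE; adjusted p = 0.000431), and was above the cut in the sorted cells only. Tlr4, the receptor for lipopolysaccharide, stood at 8.38, 7.59 and 7.80 against 6.58 and 6.34 (1.46), while Nlrc5 (1.01) and Zbp1 (0.91) were higher by less. Of 31 eicosanoid genes, 14 were lower and 3 higher, the higher count being 1 without the second marrow array. The leukotriene enzymes Alox5ap (−6.26), Alox5 (−4.60) and Lta4h (−3.21) and the prostaglandin synthase Ptgs2 (−4.98) fell together, whereas the prostaglandin F receptor Ptgfr stood at 9.0, 9.96 and 7.74 against 3.05 and 3.22.

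Receptor tyrosine kinases, which bind growth factors, were called mainly higher, and cytokine receptor chains in both directions. Of 48 receptor tyrosine kinases, 15 were higher (31.2%) and 4 lower (8.33%), and 2 were lower without the first marrow array. Pdgfrb stood at 10.75, 10.58 and 10.41 against 3.76 and 4.19, Fgfr2 at 9.68, 9.91 and 9.67 against 3.86 and 3.59, and Egfr at 9.86, 9.21 and 9.35 against 4.53 and 4.24. Pdgfra (5.62), the matrix receptor Ddr2 (3.81), Ryk (3.75) and Fgfr1 (3.35) were also higher. Csf1r, the receptor of macrophage growth, stood at 3.97, 3.97 and 4.02 against 7.73 and 7.58, and Flt3 (−1.29), Met (−1.55) and Igf1r (−0.62) were lower. Of 40 cytokine receptor chains, 9 were higher and 15 lower. The higher ones included the chains that signal with gp130: Lifr at 10.62, 10.96 and 10.89 against 4.67 and 5.02, Osmr at 9.81, 8.82 and 8.09 against 3.27 and 3.38, and gp130 itself, Il6st (2.91). The growth hormone receptor Ghr stood at 9.82, 9.91 and 9.93 against 3.48 and 3.54. Il7r, the receptor for the reporter's own cytokine, was below the cut in the sorted cells, at 3.24, 3.50 and 3.32 against 7.77 and 7.43. Csf3r (−5.33), Il1r2 (−5.08) and Csf2rb (−3.63) were lower as well.

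Hormone and lipid receptors were called in both directions. Of 41 such G protein-coupled or natriuretic receptors and their partner proteins, 12 were higher (29.3%) and 9 lower (22%, near the background of 17.8%). Without either total marrow array 8 were higher. The sphingosine phosphate receptor S1pr3 stood at 10.53, 10.72 and 10.04 against 4.67 and 4.17, and the parathyroid hormone receptor Pth1r at 7.48, 8.14 and 7.53 against 4.06 and 4.14. Npr2, the receptor of C-type natriuretic peptide, was higher by 3.36. The calcitonin receptor partners moved apart, with Ramp2 higher (3.13) and Ramp1 lower (−4.06). Of 42 nuclear receptors, 14 were higher and 3 lower, and 9 were higher without either total marrow array. Nr1d1, the haem-binding clock repressor, stood at 9.59, 8.18 and 9.76 against 5.12 and 4.99, and the fat cell factor Pparg at 8.66, 8.97 and 8.52 against 5.91 and 5.81. The estrogen receptor Esr1 (2.18) and the thyroid receptor Thra (1.85) were higher. All 3 lower members were the immediate-early receptors Nr4a1 (−3.34), Nr4a2 (−0.75) and Nr4a3 (−0.54). The calls of Nr4a2 and Nr4a3 were lost in 3 and 5 alternatives. Nr4a3 lay near the detection cut or below it, at 3.14, 3.28 and 3.43 against 3.68 and 3.97. Of 20 clock genes, 6 were higher, with Rora (2.33) and Clock (1.57) beside Nr1d1, and Cry1 was lower (−1.19); the time of day of tissue collection was not given in the sources used here.

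Matrix genes were called mostly higher. Of 29 collagen processing enzymes, 19 were higher and 0 lower, and the median of 2.44 was the highest of the programme lists. Pcolce, which enhances procollagen cleavage, stood at 12.04, 11.58 and 11.75 against 4.74 and 4.73. The crosslinking enzyme Lox stood at 10.11, 10.34 and 10.22 against 3.98 and 3.50, and the protease Fap at 8.92, 9.47 and 8.86 against 3.23 and 2.91. All 4 measured prolyl 3-hydroxylase family genes were higher, P3h1 (2.44), P3h2 (5.15), P3h3 (3.02) and P3h4 (3.44), as were the lysyl hydroxylase Plod2 (4.30) and the collagen chaperone Serpinh1 (4.38). The collagens themselves gave 22 higher and 0 lower of 44, and 13 and 14 higher without the first and the second marrow array. Col8a1 stood at 9.81, 11.02 and 10.52 against 3.77 and 3.86, and Col6a1 (4.81), Col12a1 (4.51) and Col6a2 (3.67) followed. Of 57 ADAM and ADAMTS proteases, 17 were higher and 2 lower, led by Adamts5 (4.30), Adamts9 (4.14) and Adamts1 (4.06), with the leucocyte protease Adam8 lower (−3.48). Without the second marrow array 8 ADAM and ADAMTS genes were higher and 1 was lower, and without the first 10 were higher.

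Glycosaminoglycan synthesis gave 13 higher and 3 lower of 42 genes. Sulf1, which trims sulphate from heparan chains, stood at 9.61, 8.52 and 8.58 against 3.50 and 3.66, while its relative Sulf2 was lower (−1.48). Dse (3.75) and Chst14 (2.58), which both make dermatan sulphate, were higher, and Chst3 was lower (−2.12). Only 6 and 5 genes of the list were higher without the first and the second marrow array. The early secretory pathway moved less. Of 29 genes of entry and folding in the endoplasmic reticulum, 11 were higher and 1 lower (median 0.37), and 6 and 7 were higher without the first and the second marrow array. The chaperone Hspa5 stood at 10.85, 10.89 and 10.54 against 9.56 and 9.76, while Sec61b ran against the list at 9.67, 8.97 and 7.89 against 11.01 and 10.82. After quantile and cyclic loess rescaling 17 and 19 members were higher. Of 33 genes of transport to the Golgi, 11 were higher and 0 lower, with 6 and 5 higher without the first and the second marrow array. After cyclic loess rescaling 17 were higher, and 3, 4 and 2 were lower when the first, the second or the third sorted array was left out. The higher genes included Creb3l1, a membrane-bound factor of secretory cells, at 8.25, 7.49 and 8.0 against 4.67 and 4.68, and the coat genes Sec24d (2.88), which serves procollagen export, and Copz2 (3.20).

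Contact and tension genes were called more often higher than lower. Gja1, the main gap junction protein of stroma, stood at 11.85, 12.11 and 11.74 against 5.47 and 5.39, and 11 of 37 junction and polarity genes were higher and 2 lower. Dlg5 (4.84), the catenin Ctnnd1 (3.29) and Cldn10 (3.19) were next. Of 36 focal adhesion genes, 15 were higher (41.7%) and 7 lower (19.4%, near the background of 17.8%). Fhl2 stood at 9.32, 9.96 and 9.01 against 4.41 and 4.28, and Tgfb1i1 (4.30) and Tns2 (4.29) were higher. Paxillin (Pxn) ran against these, at 5.75, 5.84 and 5.50 against 8.83 and 8.78, with Parvb (−2.55), Fhl3 (−2.22) and zyxin (Zyx, −1.98). Of 25 genes of the Hippo pathway and its CCN targets, 13 were higher and 2 lower (median 0.77). The secreted targets Ccn1 and Ccn2 led: Ccn1 stood at 10.41, 10.90 and 11.65 against 3.68 and 4.28, and Ccn2 at 9.82, 10.18 and 10.76 against 4.49 and 4.48. The coactivators Yap1 (1.61) and Wwtr1 (2.43) and their partner Tead1 (3.73) were higher, and the upstream kinase Stk4 was lower (−2.80). Of 12 caveolar genes 5 were higher (41.7%), with Ehd2 (2.60) and Cavin3 (2.37). The 2 lower ones (16.7%, near the background of 17.8%) included Ehd4 at −2.49. Without the first and the second marrow array 3 and 2 were higher.

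Hedgehog reception genes were higher while no ligand was called. Of 18 genes, 9 were higher and 0 lower, and Shh, Ihh and Dhh, the ligands, were not called. The receptor Ptch1 stood at 8.26, 7.85 and 8.20 against 5.64 and 5.53, the transducer Smo at 6.73, 7.20 and 7.56 against 4.45 and 4.73, and Gli3 at 7.54, 6.38 and 6.76 against 3.73 and 3.71. Gli2 (1.09), Gas1 (2.25) and Boc (2.07) were higher too, and Gli1 was higher by 0.35. The primary cilium, where this pathway signals, gave 10 higher (23.3%) and 6 lower (14%, below the background of 17.8%) of 43 genes (median 0.20). Ift43 was higher (2.99) and B9d2 lower (−1.68), and 4 and 3 cilium genes were higher without the first and the second marrow array. The lower count was 2 without the first marrow array and 2 to 5 when each array was left out. Of 47 axon guidance and adhesion genes, 18 were higher and 2 lower. Islr stood at 11.50, 11.39 and 11.36 against 4.33 and 4.31, and the guidance receptors Neo1 (4.79), Plxna2 (4.66), Nrp2 (4.03), Nrp1 (3.46) and Robo1 (2.88) were higher, against Plxnc1 (−2.93). Of 34 protocadherins, 16 were higher and 0 lower, and 9 were above the cut in stroma only. Pcdh18 stood at 8.93, 8.76 and 8.45 against 3.27 and 3.39; without the first and the second marrow array 6 and 7 were higher. The clustered Pcdhb genes are close copies whose probes may be shared, so single members such as Pcdhb9 (3.13) are uncertain.

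**Figure D4:**
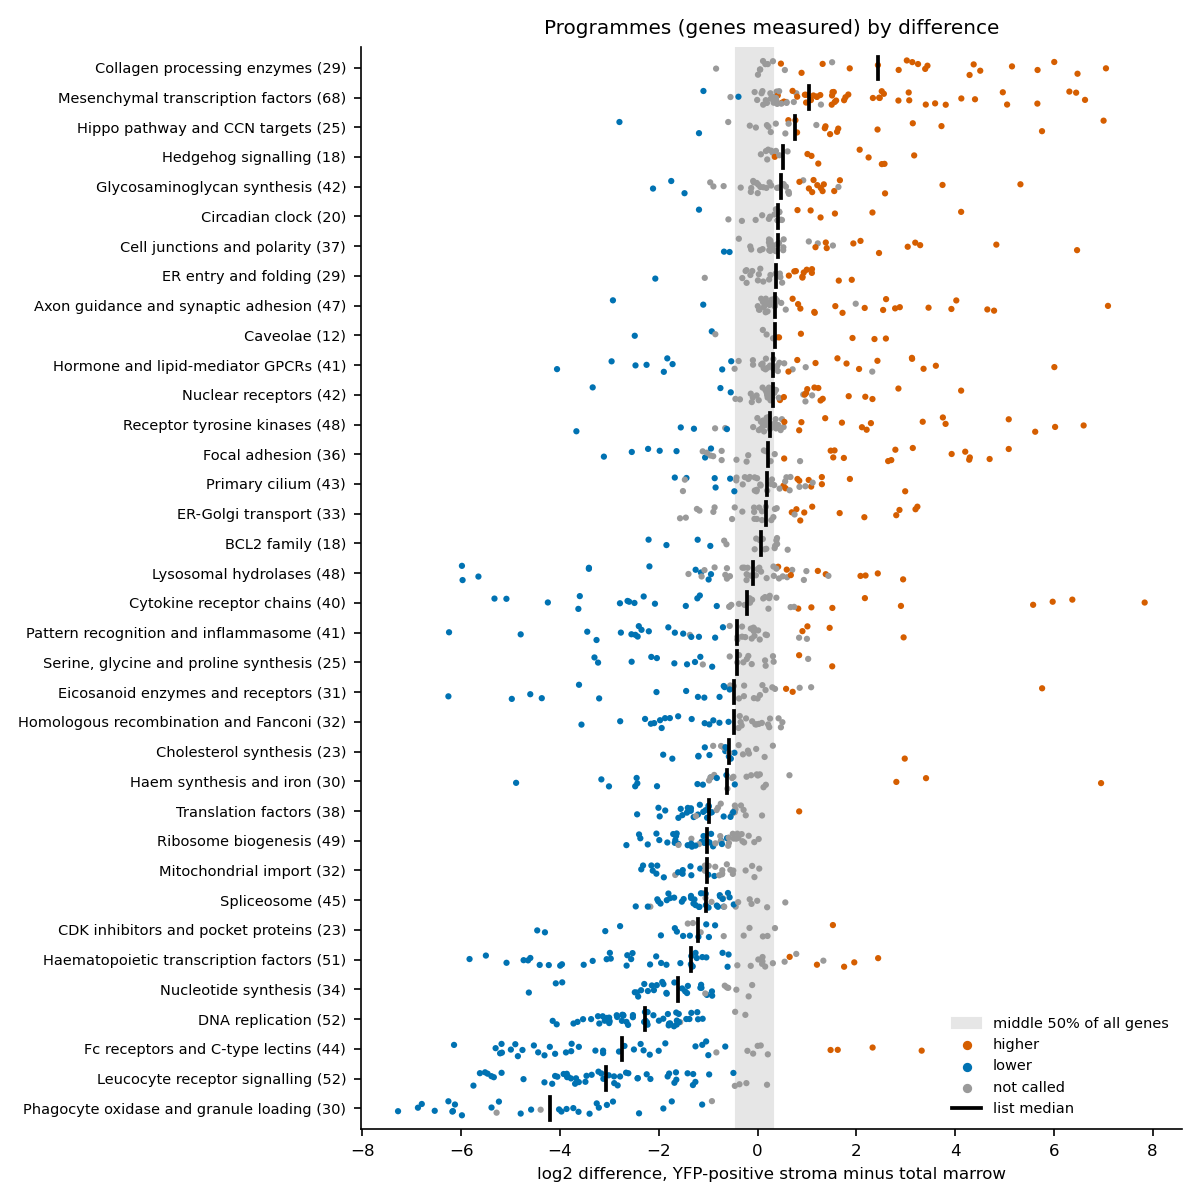
Log2 difference between reporter-positive stroma and total marrow for each gene of 36 programmes (rows, ordered by median; number of genes measured in brackets), coloured by call, with list medians as black bars and the middle 50% of all genes in grey. Collagen processing (median 2.44) and mesenchymal factors (1.03) lie at the top and phagocyte (−4.21) and leucocyte signalling genes (−3.07) at the bottom, and most lists in between hold genes called in both directions.

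DNA replication and the programmes that supply it were lower. Of 52 DNA replication genes, 49 were lower and 0 higher (median −2.27). Uhrf1, which keeps methylation through replication, stood at 3.97, 4.15 and 3.80 against 7.87 and 8.37, and the helicase subunit Mcm3 at 3.66, 3.88 and 4.28 against 7.93 and 7.40. Of 34 nucleotide synthesis genes, 27 were lower and 0 higher (median −1.61), among them the ribonucleotide reductase subunit Rrm2 at 4.07, 5.20 and 4.32 against 9.15 and 9.17. Of 32 homologous recombination and Fanconi genes, 16 were lower and 0 higher, with Bard1 at −3.56. Of 37 kinesins, 16 were lower and 1 higher, led by the spindle motor Kif11 (−4.70). Among 23 cell cycle inhibitors, pocket proteins and partners, 13 were lower and 1 higher; 8 were lower without the second marrow array. The sole higher one was Cdkn1c, encoding p57, at 6.76, 7.0 and 6.43 against 5.34 and 5.06 (1.53 ± 0.21, SE; adjusted p = 0.00115), while E2f8 (−4.46) and Cdkn3 (−4.31) were lower. Of 18 genes of the BCL2 family, which sets survival, 4 were lower (22.2%, near the background of 17.8%) and 0 higher, with a median of 0.08; Bak1 (−2.21) and Mcl1 (−1.84) were among the 4, and 2 were lower without either marrow array.

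Most genes of the machinery of gene expression were lower by medians of about 1 log2 unit as deposited, and the counts and medians depended on the arrays and the scaling. Of 45 spliceosome genes, 31 were lower and 0 higher (median −1.05); 13 and 16 were lower without the first and the second marrow array, and 16 after quantile or cyclic loess rescaling. Of 49 ribosome biogenesis genes, 29 were lower and 0 higher (median −1.02), and 12 and 15 without those arrays. Nucleophosmin (Npm1) stood at 7.56, 7.27 and 6.40 against 9.64 and 9.31. Of 38 translation factors, 24 were lower (median −0.99), and 11 and 15 without the first and the second marrow array; the helicase Eif4a2 alone was higher (0.84), a call lost without either marrow array. Of 57 cytosolic ribosomal protein genes, 47 were lower as deposited (median −0.90), but 12 after quantile and 9 after cyclic loess rescaling. They were 20 and 24 without the first and the second marrow array. Of 32 mitochondrial import genes, 15 were lower (median −1.03), 7 without the first marrow array and 9 after quantile rescaling. Mitochondrial ribosomal proteins gave 45 lower of 77 and proteasome genes 29 of 50; without the first marrow array these were 12 and 12, and after quantile rescaling 22 and 16; 18 proteasome genes were lower without the second marrow array. The medians of splicing, ribosome biogenesis, translation and mitochondrial import genes lay between −0.60 and −0.89 after both rescalings. Those of cytosolic ribosomal protein and proteasome genes shrank further, to −0.23 and −0.43 after cyclic loess rescaling.

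Genes of iron and cholesterol handling were called mainly lower, and lysosomal genes in both directions. In haem synthesis and iron transport, 13 of 30 genes were lower (43.3%) and 3 higher (10%, near the background of 11.4%). Without the first marrow array 7 were lower. The lower ones included the transferrin receptor Tfrc, at 2.83, 2.96 and 3.03 against 7.80 and 7.85, and the haem enzymes Alad (−3.01) and Cpox (−2.43). The 3 higher ones were ceruloplasmin (Cp) at 10.79, 10.78 and 10.26 against 3.74 and 3.56, transferrin (Trf) at 11.09, 11.33 and 10.94 against 7.77 and 7.64, and hephaestin (Heph, 2.81). Of 48 lysosomal genes, 9 were higher (18.8%) and 10 lower (20.8%), near the background in the lower direction, with a median of −0.09 that turned positive after either rescaling. Cathepsins, singled out after their values were seen, were called in both directions. Ctsk, the collagen-degrading cathepsin, stood at 7.66, 7.45 and 7.28 against 4.19 and 4.85, and Ctsf (2.19) and Ctsl (2.09) were higher. Ctss stood at 3.96, 3.60 and 3.61 against 9.70 and 9.68, and Ctsg (−5.99), Ctse (−5.65) and Ctsc (−3.41) were lower. The lysosomal count of higher genes was 15 without the third sorted array, 4 without the second marrow array, and 15 and 16 after quantile and cyclic loess rescaling; 6 were lower without the first marrow array. Of 23 cholesterol genes, 11 were lower (47.8%) and only Insig2, an inhibitor of sterol synthesis, was higher (2.98). Without either marrow array 5 were lower. Of 25 serine, glycine and proline genes, 10 were lower, led by the amino acid carrier Slc7a5 (−3.30) and asparagine synthetase Asns (−3.23), while Oat was higher (1.51). Of 379 solute carriers, 60 were higher (15.8%) and 48 lower (12.7%, below the background of 17.8%). The anion exchanger Slc26a7 (5.86) and the inositol carrier Slc5a3 (4.39) led them. Without the first marrow array 32 were higher and 30 lower, and without the second 34 were higher.

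Paired paralogues gave a view of the same protein families within both groups. 45 pairs of a leucocyte form and another form were listed, and 40 had both genes measured. Not every other form is one of wider expression, and Ebf3 stands on the mesenchymal list. The largest differences of other forms were those of Pdgfrb (6.61, paired with Csf1r), Ebf3 (6.45, with Ebf1) and Pdgfra (5.62, with Kit). The leucocyte form was lower in 36 pairs, higher in 1 and not called in 3, with a median of −3.61. The other form was higher in 15, lower in 6 and not called in 19, with a median of 0.21. In 12 pairs the leucocyte form was lower and the other higher, and 8 pairs did so without either marrow array; the pairs were listed for their known leucocyte bias, so the count describes and is no test. The parvins, which link integrins to actin, gave Parvg at 4.01, 3.80 and 4.23 against 8.23 and 8.42 and Parva at 8.78, 8.08 and 8.51 against 4.21 and 4.29. The kindlins gave Fermt3 at 4.67, 4.50 and 4.75 against 7.84 and 7.68 and Fermt2 at 8.05, 8.48 and 8.51 against 3.67 and 3.62. In both pairs the levels of each form in stroma and marrow did not overlap, as was so for 59.8% of all rows in either direction. These pairs were named for their opposite calls, so the separation is no result. Nckap1l fell by 5.34 and Nckap1 was higher by 2.95, subunits of the complex that drives actin branching. Hcls1 (−4.06) and cortactin (Cttn, 2.09), the plastins Lcp1 (−6.38) and Pls3 (1.78), and the lysosomal proteins Laptm5 (−5.47) and Laptm4a (1.96) also ran apart, the call of Pls3 being lost without either marrow array. The coronins Coro1a (−5.39) and Coro1c (−2.98) were both lower. Ebf1 (1.20) and Ebf3 (6.45) were both higher, the only pair in which the leucocyte form rose.

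**Figure D5:**
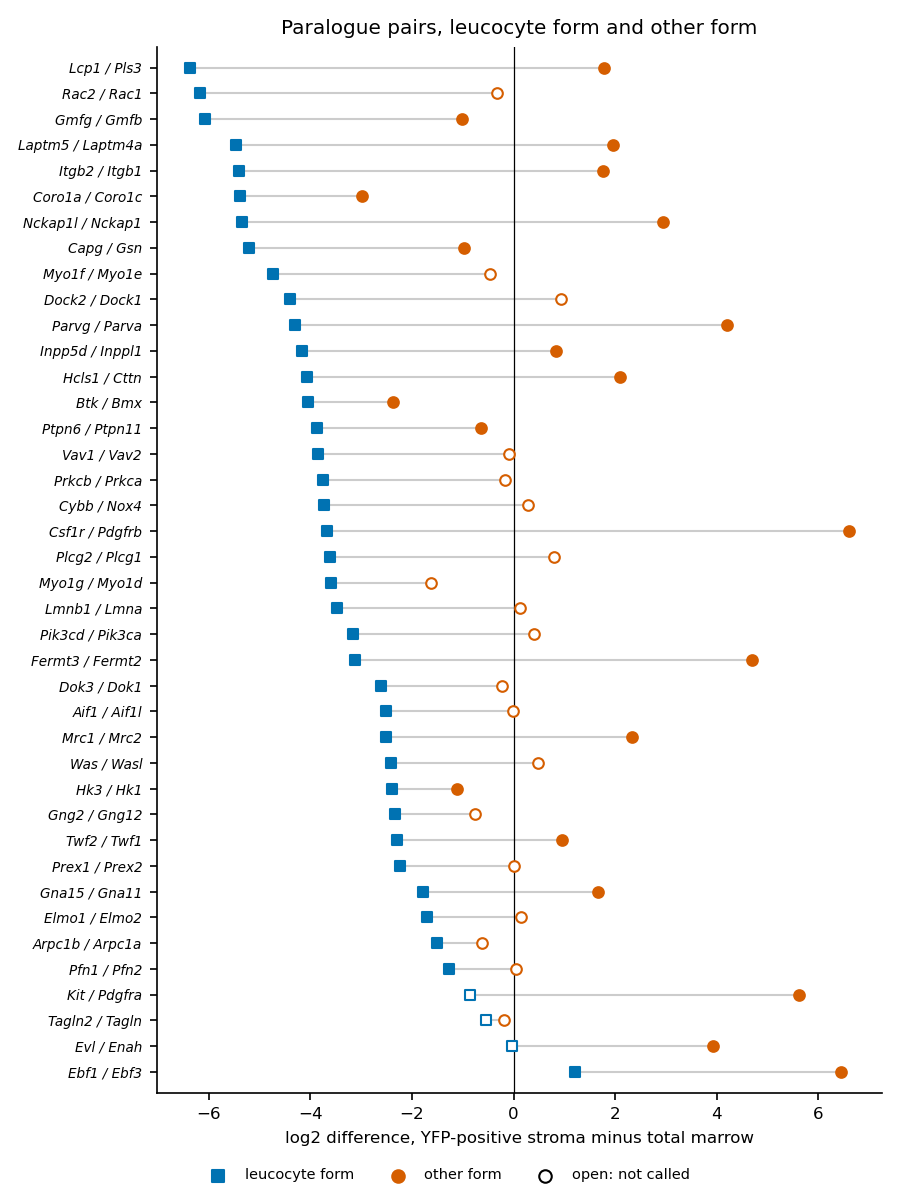
Log2 difference between reporter-positive stroma and total marrow for both members of 40 paralogue pairs (rows, ordered by the leucocyte form), squares for the leucocyte form and circles for the other, open where not called. 36 squares are called lower, while the circles scatter around 0 with 15 called higher and 6 lower.

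The 10 largest differences in each direction among genes outside the lists were as follows. Igfbp5, a binder of insulin-like growth factors, stood at 12.24, 12.27 and 12.25 against 3.40 and 4.29 (8.41 ± 0.24, SE; adjusted p = 2.66e-07). The cytochrome Cyp1b1 (7.92), the complement inhibitor Serping1 (7.86), the Wnt binder Sfrp4 (7.62), tenascin C (Tnc, 7.60), the BMP binder Chrdl1 (7.55), Gdpd2 (7.41), Cdh11 (7.22), Fstl1 (7.20) and the hypoxia factor Epas1 (7.19) followed. Lowest were Ifitm6 at 3.62, 3.78 and 3.34 against 11.08 and 10.98, Cd52 (−7.40), Pglyrp1 (−7.21), Chil3 (−7.19), Cd53 (−7.16), the class II gene H2-Aa (−6.74), the chemokines Ccl3 (−6.73) and Cxcl2 (−6.64), Mcemp1 (−6.57) and Ly6a2 (−6.40). These 20 genes were taken only from called genes whose groups did not overlap, so their separation is no result. Over all rows 59.8% did not overlap, in either direction.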

How the data were processed

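Per the labels, RNA from sorted cells or total marrow was amplified by a whole-transcriptome method (Ovation Pico WTA V2, NuGEN) before hybridisation to Affymetrix Mouse Gene ST 1.0 arrays. The submitters' processing notes name Affymetrix Expression Console 1.3.1 and RMA, which corrects background, normalizes and summarises probes. The log2 signals were used as deposited by the authors, with no rescaling; whether all arrays were summarised together is not given in the sources used here. Of 35556 rows, 21789 with exactly 1 gene symbol were tested, with no filter on signal, while 1621 with several and 12146 with none were left out. Symbols came from the platform annotation, and 21698 Entrez identifiers matched the GRCm38.p6 gene table.

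A limma 3.58.1 fit (R 4.3.3) took a mean per group over 8 arrays; the YFP-negative array, which had a median of 3.46, was left out. Residual and prior degrees of freedom were 5 and 2.50. Tests were two-sided, with Benjamini-Hochberg adjustment and a threshold of 0.05. A gene with several rows (999 genes) was read from the row with the highest mean. The number of arrays limits the precision. On simulated data of 21789 rows, the fit recovered 53.5% of 200 rows changed by 1 log2 unit and 90.5% of 200 changed by 2. False calls numbered 8 and 12. The simulation gave all groups the same spread in a row and changed only 200 rows. In the data the median row SD was 0.215 in reporter-positive and 0.098 in total marrow arrays, and 6422 rows were called. The simulated rates therefore do not carry over to this comparison.

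The members, gene lists and pairs were chosen with earlier results of these data known. Genes were named by rule: the markers, up to 4 called members per list with the largest non-overlapping differences, and up to 3 running against the list. Added were opposite paralogues, the 10 largest called, non-overlapping differences each way outside the lists, and the 8 rows with the widest range among sorted arrays. Members of gene families and further list members were named after their values were seen. Alternatives were other scalings, a filter on dim rows, other variance settings, a replicate block, a test against 1 log2 unit, and leaving out each array. Samples with the same number did not deviate together, and the replicate block is given with the alternatives.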

Additional observations from a re-analysis of the deposited data

Results flagged for a closer look

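The single array of YFP-negative cells from the same gate entered no comparison, and its values stand on a lower scale (median 3.46). Signals of the stromal markers there were above total marrow all the same. Il7 was at 5.87, against 3.40 and 3.19 in total marrow, Lepr was at 10.58, Kitl was at 10.19 and Cxcl12 was at 11.88, each above the higher of the total marrow arrays. With 1 array there is no replicate check. Groups of 3 and 2 arrays are too small for a test of single outlying samples.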

How the results depend on the processing

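Both counts of rows kept to within 1.5 times under quantile (2629 higher, 3085 lower) and cyclic loess normalization (2588 and 3354), the filter on dim rows, the 5 arrays alone, array weights, and trended robust variances. Against a change of 1 log2 unit (limma treat), 728 rows were higher and 1270 lower. Leaving out each array gave 1256 to 2513 higher and 2380 to 4109 lower, the lowest without the first total marrow array; without the second, 1338 were higher. The numbered replicates pair only 2 arrays of each group, with correlations of deviations of 0.060 and −0.041, so they share a number only; the fit with the replicate block called 1919 higher and 3484 lower. Leaving out each array moved Xist from −1.64 to 1.04, reached without the first YFP-positive array (adjusted p = 0.0263), and Mzt1 from −1.77 to 0.79, reached without the third (adjusted p = 0.457); in each case the array left out stood apart from the others. Of 280 named genes, 34 and 31 changed their side of the threshold without the first and second total marrow array, 64 against 1 log2 unit, and at most 12 under any other alternative. The spread of the sorted arrays limits calls: 15.0% of rows ranged over more than 1 log2 unit there, against 0.376% in total marrow.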

Other observations

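Beyond neutrophil transcripts, the rows with the widest range among the reporter-positive arrays included an acute phase gene, a lubricant of joints and a sex-linked RNA. Serpina3n stood at 11.48, 4.81 and 8.03 against 4.10 and 4.06 in total marrow. Prg4, the lubricin of joint surfaces, stood at 6.71, 4.02 and 8.07 against 3.59 and 3.67, and the gelatinase Mmp9 at 3.97, 7.03 and 8.46 against 10.34 and 10.37. Xist, the RNA of the inactive X chromosome, stood at 4.12, 9.48 and 9.24 against 7.93 and 8.71. Serpina3n, Prg4 and Xist did not pass the test (limma adjusted p = 0.0972, 0.121 and 0.732), and Mmp9 was called lower (adjusted p = 0.0331), a call lost in 9 alternatives.

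Histone genes, chiefly made in dividing cells, gave 24 lower and 2 higher of 43, with H2ac4 at 3.39, 3.47 and 3.83 against 8.88 and 9.07; close copies among them may share probes. Of 29 semaphorins and plexins, 11 were higher and 3 lower, with Sema6d (5.08) and Sema4a (−5.13) at the ends. Rpl39l, a copy of a ribosomal protein gene, stood at 8.03, 7.66 and 7.59 against 3.43 and 3.19, while 47 of 57 cytosolic ribosomal protein genes were lower. Olfactory receptors, used for the detection cut, gave 29 higher and 1 lower of 1015, and 1 to 54 higher when each array was left out.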
